A study of Mus musculus with 6 samples.

Results

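The genes of the cytosolic ribosomal proteins were examined for open chromatin at their ends. They were taken by symbol from the protein-coding genes of the RefSeq annotation of the mouse genome (assembly GRCm38.p6, the same as mm10): Rpl or Rps with a number and at most 1 further letter, Rplp0, Rplp1, Rplp2, and Rpsa. Of 84 symbols of this form, 81 were protein-coding and were kept, out of 21883 protein-coding genes in all. The other 3, Rps4l, Rpl6l and Rpl32p, are annotated as pseudogenes. The 81 members comprised 47 proteins of the large subunit, 31 of the small subunit with Rpsa, and the 3 proteins of the stalk. They lay on 19 chromosomes, 14 of them on chromosome 7 and 7 each on chromosomes 9, 11 and 17.

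A ribosome is built from a small subunit, which reads the messenger RNA, and a large subunit, which joins the amino acids and carries the stalk that recruits elongation factors. Every dividing cell needs all of its parts in near-equal amounts, and the genes for them are among the most strongly transcribed of the genome. Their promoters typically lie in CpG islands, and their transcripts typically begin with a run of pyrimidines, the TOP sequence, through which the TOR kinase and LARP1 control their translation. Mammals also carry many processed copies of these genes, nearly all of them inactive.

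The assay was ATAC-seq, in which the Tn5 transposase cuts accessible DNA, and the material was primary vascular smooth muscle cells of the mouse, which give arteries their tone. The question of the series was which accessible regions change on knockdown of Arid3a, which encodes a DNA-binding protein with an ARID domain. The control group held 3 libraries of cells given a Negative Control, and the knockdown group held 3 libraries, 1 each with si-Arid3a#1, si-Arid3a#2 and si-Arid3a#3. All libraries came from 50000 cells, a Tn5 reaction of 30 min and 24 h with the transfection mix. The labels also describe a model in which cells received Ang II, without naming libraries that did, and it was not used here. They do not say that libraries of a group were separate cultures, and the spread between control libraries may be technical. Each knockdown library had its own siRNA, so the spread in that group also holds any differences between the 3 siRNAs. The siRNA acts on RNA, so peaks at Arid3a do not check the knockdown.

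The authors deposited 1 peak list per library, with between 33248 and 52091 peaks. Control replicate 2 (33248) and knockdown replicate 3 (41629) had the shortest lists, and read depth was not analysed here. A gene was counted in a library where at least 1 base of a peak lay within 1 kb of either annotated gene end, and this is called a gene-end peak. The fold enrichment of a gene is that of its strongest gene-end peak, the authors' value for tags at the peak summit relative to the background near it in that library. It describes peaks within a library and is not a scale shared between libraries. A gene without a peak had none that the authors' caller kept, which is not the absence of open chromatin. In a bulk assay, fewer cells with an open site and less openness per cell cannot be told apart. Of 10 smooth muscle marker genes, 5 had such a peak in every library (Acta2, Tagln, Smtn, Cald1 and Lmod1). Myh11, a defining gene of that lineage, and Des had none in any. None of 6 endothelial, 4 epithelial and 4 fibroblast markers, and 1 of 6 leukocyte markers (Cd68), had a peak in 6 of 6.

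Runs of pyrimidines were more frequent at the annotated starts of members than at those of other genes. RefSeq's table of promoters (GRCm38.p6) held a start for 61 of the 81 members and for 17491 protein-coding genes. Those without one included Rplp1, Rpl3, Rpl7, Rpl8, Rpl17, Rpl21, Rpl23a, Rpl29, Rpl30, Rpl32, Rpl36, Rps14, Rps20, Rps27a and Rps29. An unbroken run of at least 8 pyrimidines (C or T) covered a start in 18 of 61 members (29.5%) and in 4.20% of all genes with a start. The first base was C in 20 of 61 members (32.8%) and in 16.1% of all. The starts below are shown because they span the range of the runs and include members whose peaks are described further on. Each line gives 20 bases before the start and 10 from it, 5′ to 3′ on the gene's strand, and capitals mark the run of pyrimidines that covers the start.
Rpl15, chr14:18270977-18271006, minus strand: ggattgtgggagaaagCCTTCTTCCTTTCC
Rpl7a, chr2:26910787-26910816, plus strand: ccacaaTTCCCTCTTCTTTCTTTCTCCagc
Rpl27a, chr7:109519175-109519204, plus strand: cgcgagacttcgtgagCTCCTCCCTTTTCC
Rpl35, chr2:39005122-39005151, minus strand: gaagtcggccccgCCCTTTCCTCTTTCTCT
Rpl34, chr3:130730328-130730357, minus strand: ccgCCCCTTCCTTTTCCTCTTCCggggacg
Rps10, chr17:27635235-27635264, minus strand: acgctgcgccgcgcacgCCCCTTCCTTTCC
Rps6, chr4:86857358-86857387, minus strand: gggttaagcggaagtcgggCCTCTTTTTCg
Rps18, chr17:33955656-33955685, minus strand: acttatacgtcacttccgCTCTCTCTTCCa
Rpl38, chr11:114668560-114668589, plus strand: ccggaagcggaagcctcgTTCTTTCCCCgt
Rps2, chr17:24720043-24720072, plus strand: tgcgtaggcagtcgagaTCTCgcgcttctt
The run was 21 bases long in Rpl7a, the longest among members, 20 in Rpl27a and Rpl34, 18 in Rpl35 and 17 in Rpl15. It was 10 bases in Rps6, the protein that S6 kinase phosphorylates, and 4 bases in Rps2, which is not among the 18. These lengths count bases on both sides of the start, so they are not lengths of a TOP sequence. In Rpl34 most of the run lay before the start shown, and the run at its other annotated start was 0 bases. A match of this kind describes the annotated start and not the start used in these cells.

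Upstream of the starts, matches to short motifs of known factors were counted from 250 bases before to 50 after a start, on both strands. The ETS motif CCGGAAG, which GABPA binds, was present in 25 of 61 members (41.0%) and in 12.9% of all genes with a start. TCTCGCGA, the first letters of a palindrome found in promoters of housekeeping genes, was present in 10 of 61 members (16.4%) and in 1.59% of all. The YY1 motif GCCATNTT was present in 11 members (18.0%) against 7.46% of all, and the CRE TGACGTCA in 5 (8.20%) against 2.54%. For the other motifs the shares were closer together, or lower in members. The GC box GGGCGG was present in 36 members (59.0% against 49.2%), the E-box CACGTG in 6 (9.84% against 8.91%) and the NRF1 core GCATGCGC in 3 (4.92% against 3.93%). CCAAT, the NF-Y motif, was present in 19 (31.1% against 42.3%), TATAAA in 7 (11.5% against 14.8%), and TGTCGCGA in 0 (against 0.297%). ATTAAA, a core of the sequences that ARID3A binds, was present in 9 of 61 (14.8%) and in 13.7% of all. With only the 100 bases before the start searched, CCGGAAG (19.7% against 6.92%), TCTCGCGA (13.1% against 0.978%), GCCATNTT (11.5% against 1.66%) and TGACGTCA (6.56% against 1.72%) kept the higher share in members. The direction turned for the GC box (32.8% against 36.5%), the E-box (1.64% against 4.13%), the NRF1 core (0 of 61 against 2.21%) and ATTAAA (1.64%, which is 1 member, against 4.02%). A full palindrome TCTCGCGAGA matches on both strands and was counted once per gene, and TGTCGCGA and TCTCGCGA differ at 1 letter and cannot match the same bases in the same orientation. The median ratio of observed to expected CpG was 0.857 in members and 0.564 in all genes, at a GC content of 56.7% and 56.3%.

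The stretches below are the 100 bases before an annotated start of 4 members and of Rpl10l. The 4 had a peak within 1 kb of a start in 6 of 6 libraries, and Rpl10l had none in any. Rps19 has 3 annotated starts, of which 1 is shown, and a peak covered a start in 5 libraries. Capitals mark matches to the motifs above on either strand, and overlapping matches run together. Rps19 is a small subunit protein whose loss causes Diamond-Blackfan anaemia.
Rps19, chr7:24884492-24884591, plus strand: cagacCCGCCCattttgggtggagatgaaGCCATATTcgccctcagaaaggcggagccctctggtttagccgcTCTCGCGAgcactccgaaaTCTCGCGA
Rpl26, chr11:68901466-68901565, plus strand: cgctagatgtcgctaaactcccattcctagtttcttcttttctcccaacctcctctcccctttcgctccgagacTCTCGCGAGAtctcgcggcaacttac
Rpl27a, chr7:109519095-109519194, plus strand: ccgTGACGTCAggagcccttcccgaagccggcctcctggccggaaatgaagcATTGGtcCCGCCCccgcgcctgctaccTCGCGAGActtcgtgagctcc
Rpl37, chr15:5116513-5116612, plus strand: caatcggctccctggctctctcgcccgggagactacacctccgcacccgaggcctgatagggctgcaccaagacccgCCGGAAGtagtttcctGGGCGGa
Rpl10l, chr12:66284402-66284501, minus strand: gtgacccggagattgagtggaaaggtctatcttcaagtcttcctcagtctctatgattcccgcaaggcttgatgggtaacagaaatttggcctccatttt
Rps19 carried matches to the GC box, YY1 and, at 2 places, TCTCGCGA. Rpl26 carried 1 full palindrome, and Rpl27a held the GC box, part of the palindrome, the NF-Y motif and the CRE. Rpl37 held the GC box and the ETS motif, and Rpl10l held no match in these 100 bases. A match is not a bound site.

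**Figure D1:**
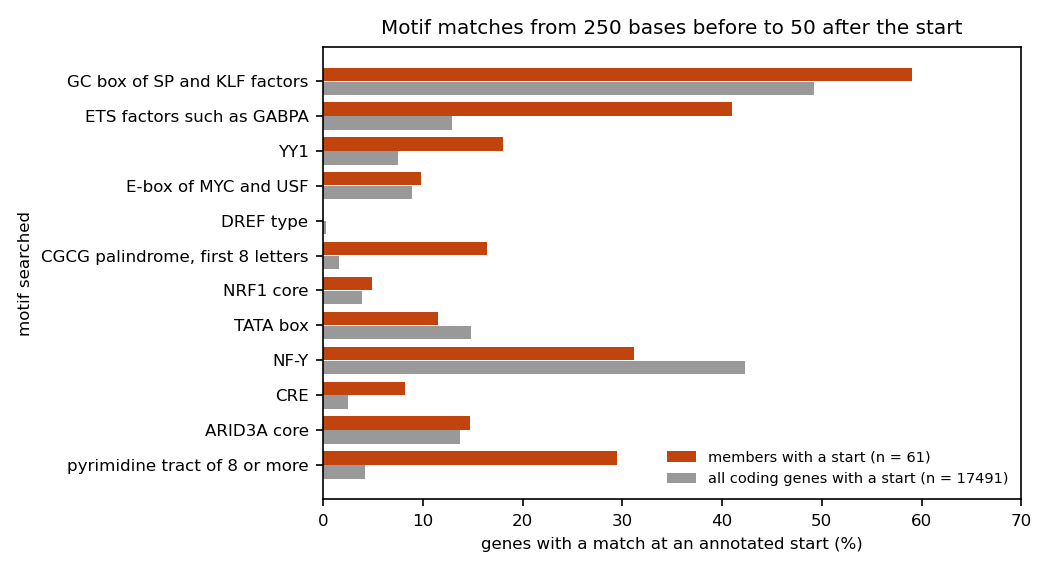
Share of genes (%, horizontal axis from 0) with a match to each motif, or a run of at least 8 pyrimidines over the start, at an annotated start. The upper bar of each pair is the 61 members and the lower bar all 17491 genes with a start. The ETS bar reaches 41.0% against 12.9% and the pyrimidine bar 29.5% against 4.20%, while the ARID3A core stands at 14.8% against 13.7%, an order that turns to 1.64% against 4.02% in the 100 bases before the start.

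Most members had open chromatin at a gene end in every library. A gene-end peak was present in 6 of 6 libraries for 59 of 81 members (72.8%), against a background of 36.4% of all protein-coding genes, and in 0 of 6 for 5 members (6.17%), against 41.4%. Members are short, with a median length of 3175 bases against 17170. Of the 8795 protein-coding genes no longer than the longest member (11774 bases), 27.8% had a peak in 6 of 6 and 54.4% in 0 of 6. A further 1 member had a peak in 1 library, 3 members in 2, 2 in 3, 4 in 4 and 7 in 5. The counts were 34 of 47 for the large subunit (72.3%), 22 of 31 for the small subunit with Rpsa (71.0%) and 3 of 3 for the stalk. Apart from 5 paralogs named with a final l, 58 of 76 members (76.3%) had a peak in 6 of 6 and 2 had none, Rps2 and Rpl17.

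Nearby genes share some of these peaks. For 40 members the windows met no other protein-coding gene's window, and 26 of these (65.0%) had a peak in 6 of 6 libraries. Here and below, a peak is said to meet another gene's end where it lay within 1 kb of that end in at least 1 library. Of the members with a gene-end peak, the strongest met no other gene end in 54, and 38 of these (70.4%) were present in 6 of 6. Neither share was counted over all protein-coding genes, so the part of neighbours in the difference from the background was not tested. Members that hold genes of small nucleolar RNAs in their introns, 29 with 58 such genes, were present in 6 of 6 in 23 cases (79.3%), and the 52 others in 36 (69.2%).

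Other gene lists put these shares in proportion. The mitochondrial ribosomal proteins, the nuclear-encoded parts of the separate ribosome of mitochondria, were open at a gene end throughout the 6 libraries in 62 of 78 genes (79.5%), and the subunits of the respiratory chain in 66 of 93 (71.0%). Keratins, the intermediate filament proteins of epithelia, had one in 5 of 49 (10.2%) and none in any library in 34. Of 312 annotated pseudogenes named after ribosomal proteins, 4 (1.28%) had a peak in 6 of 6 and 285 (91.3%) had none, against 1.74% and 92.4% of 10429 pseudogenes of all kinds. The 4 were Rpl36-ps6, Rpl21-ps8, Rpl9-ps3 and Rpl7a-ps8, with mean folds from 9.29 to 10.5. The window of Rpl7a-ps8 meets that of Igsf23. How the authors treated reads that align equally well to a gene and its copies was not given in the sources used here.

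**Figure D2:**
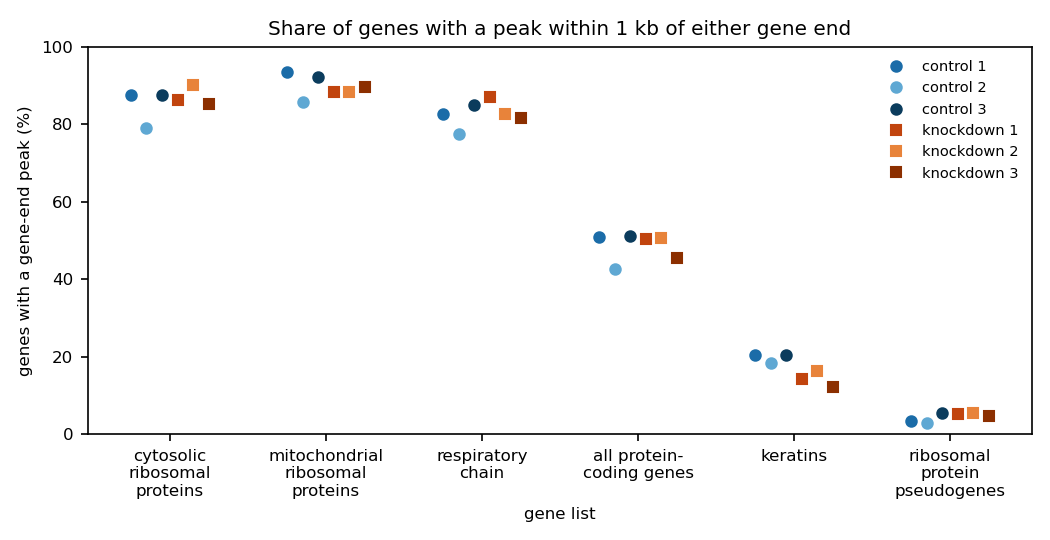
Percent of the genes of each list with a gene-end peak (vertical axis, 0 to 100%) in each of the 6 libraries, circles for control and squares for knockdown. The 81 members sit between 79.0% and 90.1%, all protein-coding genes between 42.6% and 51.1%, and the 312 pseudogenes between 2.88% and 5.45%.

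The strongest gene-end peaks belonged to a few members. Rps29, a small zinc-binding protein of the small subunit (gene ID 20090, chromosome 12, 69157722 to 69159186), had folds of 14.9, 13.3 and 18.97 in the control libraries, given in the order of their replicate numbers here and below, and of 16.8, 16.4 and 13.1 in the knockdown libraries. Its mean was 15.6 ± 2.26 (SD, n = 6). The groups overlapped, with control replicate 3 highest and knockdown replicate 3 lowest.

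Rpl15 (gene ID 66480, chromosome 14, 18267823 to 18270986), of the large subunit, had folds of 18.1, 11.9 and 14.1 in control and 16.4, 16.9 and 15.2 in knockdown, a mean of 15.5 ± 2.21 (SD, n = 6). Control replicate 1 was highest and control replicate 2 lowest, so the control range spans that of the knockdown. The peak also met the gene end of Nkiras1, and the run of pyrimidines of Rpl15 is shown above.

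Rpl37 (gene ID 67281, chromosome 15, 5116613 to 5119140) had folds of 15.3, 8.51 and 14.6 in control and 13.4, 14.3 and 10.5 in knockdown, and its peak met the gene end of Card6. Rpl27 (gene ID 19942, chromosome 11, 101442245 to 101445596) had 14.4, 10.4 and 14.3 in control and 12.3, 13.0 and 10.3 in knockdown, at a peak that met no other gene end. In both, the libraries with the shortest lists, control replicate 2 and knockdown replicate 3, were the lowest of their groups. These 4 genes stayed near the top in every library. Among the 59 members present everywhere, the rank by fold ran from 1 to 3 for Rps29, 1 to 4 for Rpl15, 3 to 6 for Rpl27 and 2 to 9 for Rpl37.

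High mean folds were also found for Rps21 (10.9 ± 1.74), Rps26 (10.7 ± 1.17) and Rpl3l (10.0 ± 1.19; SD, n = 6 each). Rpl3l is the paralog of Rpl3 made in heart and skeletal muscle, and its value does not describe its own start. Its peak lay at the far end of the gene, where it met the gene end of Msrb1, and no library had a peak within 1 kb of its annotated starts.

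At the lower end, 8 members with a peak in every library had mean folds from 5.31 to 5.90. They included Rpl12, a protein at the base of the stalk (5.31 ± 1.45), Rps15 (5.33 ± 1.13), Rps7 (5.35 ± 0.519), Rps12 (5.64 ± 0.814), Rps24 (5.80 ± 1.37), Rpl37a (5.82 ± 1.33) and Rpl5 (5.90 ± 1.20; SD, n = 6 each). The ranges of the members named here overlapped, so they have no order among themselves.

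**Figure D3:**
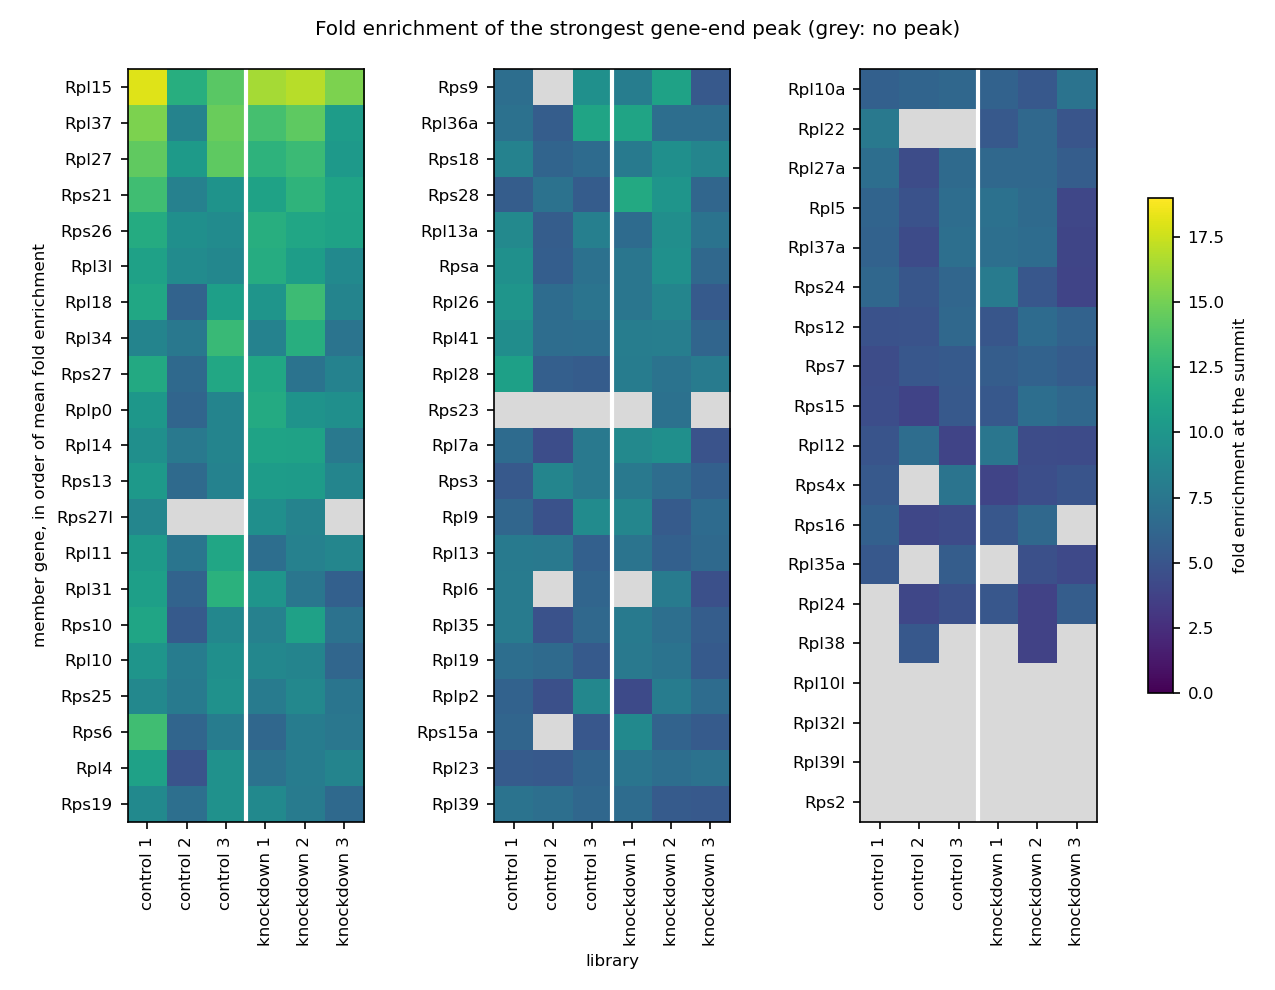
Fold enrichment at the summit of the strongest gene-end peak (colour scale from 0) for the 61 members with an annotated start, 1 row each in order of the mean over the libraries that have a peak, in the 6 libraries (columns, control left of the white line). Rpl15, Rpl37 and Rpl27 form the bright top, and Rpl10l, Rpl32l, Rpl39l and Rps2, with no peak in any library, the grey rows at the end. The other grey cells belong to members with a peak in 1 to 5 libraries.

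The order of members by fold was only partly shared by libraries. Over the 59 members with a peak everywhere, Spearman's rho between pairs of libraries ran from 0.386 to 0.713 with a median of 0.574 over 15 pairs, against 0.639 to 0.753 and a median of 0.695 for the 7975 genes with a peak everywhere. Across the same 59 members, mean fold had a rho of 0.269 with mean peak width and of −0.0805 with gene length. These correlations are across genes that share libraries and background, and serve as a description.

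By fold, members lay under the median of all genes with a peak everywhere. The median fold of the 59 members was 8.87, 6.53 and 8.09 in control and 7.96, 8.14 and 6.94 in knockdown. That of all 7975 genes with a peak everywhere was 9.27, 7.04 and 9.25 in control and 9.28, 9.43 and 7.60 in knockdown, higher in each library.

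The stalk proteins, which bind elongation factors, all had a peak in each library. Rplp0, the stalk's anchor (gene ID 11837), had folds of 10.0, 6.23 and 8.57 in control and 11.6, 9.78 and 9.44 in knockdown. Rplp1 had 8.68, 7.67 and 7.44 in control and 7.30, 11.7 and 5.74 in knockdown, and Rplp2, whose peak met the gene end of Pidd1, had 5.98, 4.61 and 8.79 in control and 4.26, 8.0 and 6.70 in knockdown. In each of the 3 the groups overlapped. Rpsa, a small subunit protein also known as a laminin receptor, had 9.52, 5.66 and 7.11 in control and 7.42, 9.53 and 6.45 in knockdown, again with overlap.

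Rpl5 and Rpl11 together bind the MDM2 protein, the negative regulator of p53, when ribosome assembly fails. Rpl11 had folds of 10.3, 7.35 and 11.2 in control and 6.87, 8.35 and 8.73 in knockdown, and Rpl5 had 6.14, 4.79 and 6.78 in control and 7.05, 6.57 and 4.06 in knockdown. The groups overlapped in both. Their means over the 6 libraries were 8.81 ± 1.69 and 5.90 ± 1.20 (SD, n = 6), and only the lowest Rpl11 value lay within the range of Rpl5. Of the genes on which this pathway acts, Trp53 had such a peak in 6 libraries and Mdm2 in 5.

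Mean peak widths of members present everywhere ran from 293 to 1112 bases. The widest mean peaks were those of Rpl10a (1112 ± 117 bases), Rps21 (879 ± 97.1), Rps18 (849 ± 97.4), Rps27a, which is made as a fusion with ubiquitin (804 ± 38), and Rpl10, a protein added late to the large subunit (799 ± 183; SD, n = 6 each). Of these, all but that of Rpl10 met another gene's end, Fance, Cables2, B3galt4 and Clhc1 in that order. Among the narrowest were Rpl9 (293 ± 78.5 bases), Rps15 (326 ± 79.4), Rps24 (340 ± 161) and Rpl28 (353 ± 82.3). Rpl10a had the widest mean peak at a fold of only 6.13 ± 0.654 (SD, n = 6).

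Members with a peak in 1 to 5 libraries numbered 17, and the libraries that missed them differed. Control replicate 2, the shortest list, missed 12 of the 17, knockdown replicate 3 missed 7, knockdown replicate 1 missed 6, control replicates 1 and 3 missed 5 each, and knockdown replicate 2 missed 3. Rps9, Rps15a and Rps4x, the X-linked small subunit protein, were among those missed only by control replicate 2, Rps16 and Rpl29 only by knockdown replicate 3, and Rpl24 only by control replicate 1. In Rps15a a peak lay within 1 kb of the start in 3 libraries and at the far end of the gene in 5. The part that list length has in these gaps was not tested.

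Where they had a peak, these 6 members ranged from a mean fold of 4.65 ± 0.759 (Rpl24) to 8.15 ± 2.23 (Rps9; SD, n = 5 each). Rpl35a, Rpl23a, Rpl22 and Rpl6 had a peak in 4 libraries, Rpl32 and Rps27l in 3, and Rpl8 and Rpl38 were among those with one in 2. Rps23, which sits at the decoding centre, had one only in knockdown replicate 2, at a fold of 7.09, and the nearest peak in the other libraries lay between 8622 and 16459 bases away. Rpl8, a large subunit protein, had folds of 3.27 in control replicate 3 and 4.89 in knockdown replicate 1, both low for a member.

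The 5 paralogs with a final l stood mostly without peaks. Rpl10l and Rpl39l, both made in testis, and Rpl32l had none in any library. The nearest peak lay between 316973 and 1110348 bases from Rpl10l (gene ID 238217, chromosome 12, 66283379 to 66284401), between 17788 and 111656 bases from Rpl39l, and between 4478 and 37718 bases from Rpl32l. Rpl3l had only the peak at its far end, and Rps27l, a gene that p53 induces, had a gene-end peak in 3 libraries.

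Rps27l shows how the 1 kb limit at gene ends decides a call. Its annotated starts lie inside the gene, 1462 bases or more from the nearer end, and the edge of the peak lay at 988 bases in knockdown replicates 1 and 2 and at 1018 and 1019 bases in control replicate 2 and knockdown replicate 3. Measured from its starts, the peak was present in 6 of 6 libraries with folds of 8.76, 6.99 and 12.9 in control and 9.44, 8.51 and 7.49 in knockdown. The groups overlapped, and the peak covered a start in each library.

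Rpl38, a large subunit protein known for its part in the translation of Hox messages, lay at the limit too. The edge of the peak near its start lay at 996 bases from the gene end in control replicate 2, which was counted, and at 1006 bases in control replicate 3, which was not. The only other gene-end peak, in knockdown replicate 2, was a separate one 960 bases beyond the far end. Measured from the start, a peak was present in 6 libraries. Its folds at the start were 7.42, 5.21 and 6.76 in control and 5.44, 6.88 and 4.37 in knockdown, with overlap. The summits lay 379 to 602 bases downstream of the start, and in no library did the peak cover it.

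Rps2 and Rpl17 had no gene-end peak, but each had a peak inside the gene in 6 of 6 libraries. In Rps2 (gene ID 16898, chromosome 17, 24718121 to 24721927) it lay 1517 to 1605 bases from the nearer gene end, at the annotated start of 24720063, with folds of 5.51, 5.71 and 5.55 in control and 7.52, 5.90 and 5.28 in knockdown. The peak covered that start in 5 libraries. In Rpl17 it lay 1401 to 1570 bases from the nearer end, with folds of 4.24, 5.44 and 6.06 in control and 3.91, 7.62 and 5.05 in knockdown. The groups overlapped in both.

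With windows of 1 kb around annotated starts in place of gene ends, 44 of 61 members (72.1%) had a peak in 6 of 6 libraries, against a background of 38.5% of 17491 genes, and 5 (8.20%) in 0 of 6, against 41.1%. The 5 were Rpl10l, Rpl32l, Rpl39l, Rpl3l and Rps18. Rps18, whose gene-end peak was among the widest, had that peak at the far end of the gene, where it met the gene end of B3galt4. Rpl19 and Rpl18 had gene-end peaks in 6 of 6 libraries and start peaks in 1 and 4. Their starts lie 3569 and 2604 bases from the nearer gene end. Rpl4, which lines the exit tunnel, had a start peak in 4 libraries and a peak at its other end, next to Snapc5, in 6.

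Where both ends of a member could be told apart, the peak mostly lay at the start. In 47 members a start lay within 1 kb of a gene end, and the start and the other end were over 2000 bases apart. The 4 members with starts over 1000 bases from both gene ends, Rpl18, Rpl19, Rps2 and Rps27l, were left out. Of the 47, 36 had a start peak in 6 of 6 libraries. The other end had one in 6 of 6 in 4 (Rpl3l, Rps18, Rpl4 and Rpl13a), in 1 to 5 libraries in 9, and in none in 34. This split was not made for all genes, so it does not set members apart from them.

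The peaks were centred close to the start. A peak covered an annotated start in 36 to 47 of the 61 members per library (59.0% to 77.0%), against 32.2% to 42.2% of all genes with a start. The median distance from the start to the nearest summit within the window was −49.5, −21 and −68.5 bases in control and −35, −40.5 and −31 bases in knockdown, negative being upstream. Over all genes it was −29, −20 and −27 bases in control and −33, −30 and −28 bases in knockdown. The summit lay upstream in 56.5% to 79.6% of members with one, and in 54.6% to 59.3% of all genes with one.

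Members with sequences shown above differed in where the summit lay. On the same scale, in bases from the start, it lay from −292 to −171 in Rpl15 and from −259 to −187 in Rpl27a, upstream in every library. In Rps10 it lay from −82 to 5, close to the run of pyrimidines itself, and in Rpl26 from −141 to 59. In Rpl7a, with the longest run, the summits lay from −522 to −204 and no peak covered the start.

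**Figure D4:**
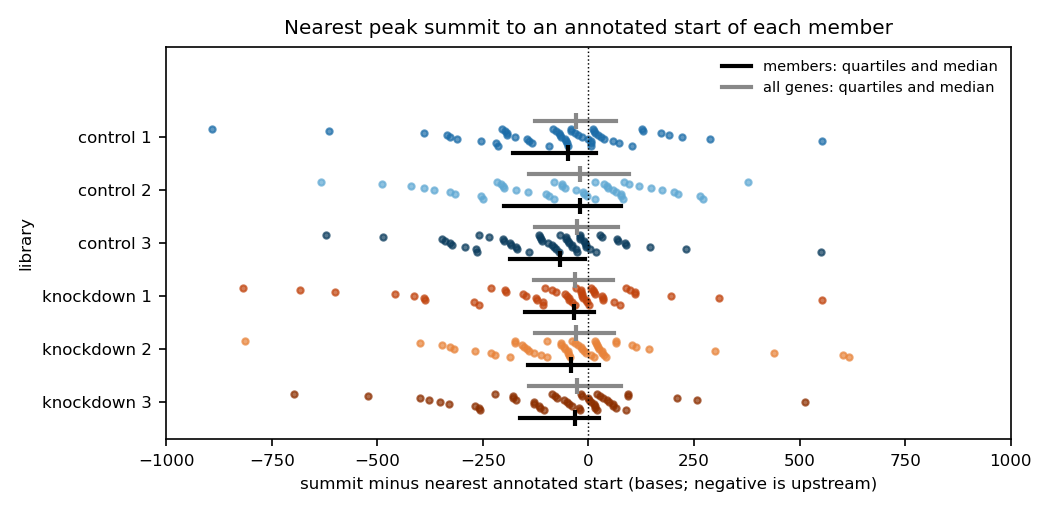
Distance in bases from an annotated start to the nearest peak summit (horizontal axis, negative is upstream) for members with a summit within 1 kb of a start, 1 point per member, in each of the 6 libraries. Black bars give the quartiles and median of members and grey bars those of all genes. The medians of members lie between −68.5 and −21 bases and those of all genes between −33 and −20.

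Start peaks were also counted by sequence feature. A start peak in 6 of 6 libraries was present in 13 of 18 members with a run of at least 8 pyrimidines and in 31 of 43 without. It was present in 20 of 25 members with CCGGAAG and 24 of 36 without, and in 9 of 10 with TCTCGCGA and 35 of 51 without. Of the 9 members with ATTAAA (Rpl11, Rpl13, Rpl24, Rpl32l, Rpl41, Rps23, Rps26, Rps4x and Rps9), 3 had a start peak in 6 of 6, against 41 of 52 without it. These are counts over few members and no test was made. The same counts were not made over all genes, so they do not show whether a difference is particular to members.

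On Arid3a knockdown, no member lost or gained a gene-end peak in a whole group. A peak in all 3 control libraries and no knockdown library was found in 0 of 81 members, against 0.0914% of all genes, and the reverse in 0 of 81, against 0.165%. At annotated starts both counts were 0 of 61, against 0.0972% and 0.0915%. A peak in at least 2 more control libraries was found in 0 of 81, against 1.23%, and in at least 2 more knockdown libraries in 1 of 81, against 1.4%. At such shares, about 1 member or none is what the background holds.

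That 1 member was Rpl22, a large subunit protein needed in T cell development (gene ID 19934, chromosome 4, 152324436 to 152334082). It had a gene-end peak in control replicate 1 at a fold of 7.72 and in knockdown replicates 1 to 3 at 5.30, 6.40 and 4.98. That peak lay at the far end of the gene and not at its start. Without control replicate 1, or counting only peaks whose summit lay inside the window, Rpl22 was the only member present in all knockdown and no control libraries. Rpl22 has 2 annotated starts, and a peak covered a start in 3 libraries. Within 1 kb of a start it had a peak in 6 of 6 libraries, with folds of 6.27, 7.86 and 8.44 in control and 8.08, 7.03 and 6.72 in knockdown. There the groups overlapped.

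The number of members with a gene-end peak was 71, 64 and 71 in control and 70, 73 and 69 in knockdown. The means were 68.7 ± 4.04 and 70.7 ± 2.08 (SD, n = 3 each), a difference of 2 members that is within the spread (3.21, the SD within groups). It was −0.333 without control replicate 2. With peaks of a −log10 q of at least 5 only it was 5.33, more than that 3.21, but the spread under this minimum was not computed. Without the minimum, the number of all genes with a gene-end peak was 10544 ± 1065 in control and 10703 ± 645 in knockdown (SD, n = 3 each). The median fold over the members with a peak was 8.44, 6.21 and 7.44 in control and 7.91, 7.92 and 6.52 in knockdown, and the median width was 540, 458 and 550 bases against 498, 483 and 446. The median width was 516 ± 50.5 bases in control and 476 ± 26.8 in knockdown (SD, n = 3 each), with overlap, and for all genes it was 517 ± 41.6 and 503 ± 27.8. With 3 libraries against 3, no exact two-sided test can go below p = 0.1.

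Fold enrichment separated the groups in 2 of the 59 members with a peak everywhere. Every knockdown library lay above every control library in 2 members (3.39%), against 3.37% of the 7975 genes, and every control library above every knockdown library in 0, against 2.13%. The share of members is that of the background. The 2 were named after their values were seen. Rps7 had 4.45, 5.16 and 5.40 in control and 5.61, 5.98 and 5.51 in knockdown, and Rpl23, a large subunit protein, had 5.45, 5.28 and 6.13 in control and 7.38, 6.85 and 7.14 in knockdown.

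Genes that act with the members were counted in the same way. Of ribosomal proteins outside the symbol rule, Rpl22l1, Rpl7l1 and Rpl36al had gene-end peaks throughout, Fau, made as a fusion with a ubiquitin-like protein, in 5, and Rps27rt in none. Of 11 elongation and ribosome-associated factors, 8 had one in 6 of 6, with the highest mean folds in Eef2 (11.8), Naca (10.5), Tpt1 (10.4) and Eef1g (9.63). Pabpc1 and Btf3 had one in 5, and Eef1a2, the form made in nerve and muscle, in none.

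Of 30 ribosome biogenesis genes, 21 had gene-end peaks throughout, led by Polr1b (14.9), a subunit of RNA polymerase I, Riok2 (13.9), Tcof1 (11.9) and Nob1 (11.8). Npm1, Polr1a and Nhp2 had one in 5, Utp4 in 4, Taf1b, Nop10, Efl1 and Lsg1 in 3, and Ubtf in none. Lsg1, a GTPase of late large-subunit assembly, had it in all 3 control libraries, at folds of 4.57, 4.65 and 5.67, and in none of the knockdown libraries, a pattern that 0.0914% of all genes showed. The number of genes with that pattern, 20, ran from 37 to 100 on leaving out 1 library. Of 9 genes of TOR signalling and translation control, 7 had one in 6 of 6, Mtor highest at 11.0. Rps6kb2, a kinase of Rps6, had one in 5, and Larp1, the protein that binds TOP messages, in none.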

How the data were processed

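ATAC-seq was run on 3 control and 3 Arid3a siRNA libraries of mouse vascular smooth muscle cells. Bowtie2, Picard, MACS2 and mm10 are named, per the submitters' processing notes. Their versions and settings, any Tn5 shift and the handling of duplicate and multi-mapping reads were not given in the sources used here, and kept duplicates or multi-mapping reads would alter peak calls. Each library has 1 deposited peak list, with each peak's position, summit, score, fold enrichment ratio, and −log10 p and q. Fold was used to describe and rank peaks. The score was not used. The smallest −log10 q was 1.30 to 1.32 per list, and read depth was not analysed here, so no interval for counting error was given.

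Peaks were joined to RefSeq gene ends and starts with Python 3.11.15, pandas 2.3.3, NumPy 2.4.6 and SciPy 1.17.1, by scripts tested on simulated data. A gene was present where at least 1 base of a peak lay within 1000 bases. Positions count from 1. A few genes that the rules name are not reported here. The RefSeq gene table gives no strand, so strand and starts came from its promoter table. No test was made over the libraries, and the members and lists were chosen with earlier results of these data known. Named members were those with the 8 highest and 8 lowest mean folds, a peak in 0 or in 1 to 5 libraries, a difference of 2 libraries between groups, the 5 widest and narrowest peaks, or nearest the window limit. The stalk proteins, Rpsa, Rpl5, Rpl11 and paralogs were named too. Genes of related lists were named where present in 1 to 5 libraries or as up to 4 examples, and lists used for comparison only were given as counts. Alternatives changed the window, the −log10 q minimum, list lengths, libraries, starts and the stretch searched for motifs.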

Additional observations from a re-analysis of the deposited data

How the results depend on the processing

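The count of members present at a gene end in 6 of 6 libraries was within 1.5 times of 59 under the alternatives except 2. It was 36 with a −log10 q of at least 5 (44.4%, against 24.7% of all protein-coding genes). It was 26 of the 40 members whose windows met no other gene's, for which no share of all genes was counted. That set is smaller than the 81, and as a share it was 65.0% against 72.8%. Within that range, lists of equal length gave 43 (53.1%, against 29.4%). The count in 0 of 6 moved from 5 to 8 with windows of 500 bases, with that q minimum and with lists of equal length, and to 3 with windows of 2000 bases and with whole genes plus 1000 bases on each side, an alternative chosen after seeing the data. Under the q minimum, the difference in members per library, knockdown minus control, was 5.33 in place of 2. That is more than the 3.21 of the spread, which was taken without the q minimum. On leaving out 1 library, again without that minimum, the difference ran from −0.333 to 3.17. Present in knockdown libraries only was 1 member, Rpl22, where the summit had to lie inside the window, and 0 to 1 on leaving out 1 library, the 1 arising without control replicate 1. Over all protein-coding genes, control-only genes numbered 20 and knockdown-only genes 36. On leaving out 1 library they ran from 37 to 100 (control-only) and from 49 to 102 (knockdown-only), as fewer libraries had to be met or missed. With the 4 longest lists they were 140 and 134, control-only genes were 41 with equal lists, and knockdown-only genes were 17 under the q minimum and 16 at annotated starts. The cause of the other changes was not tested. Depth limits which weak peaks a list can hold. No paired analysis was possible because no result came from a test and the labels do not link control with knockdown libraries.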
